A study of Homo sapiens with 4 samples.

Results

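Autophagy and lysosome genes were examined as a list of 37 genes that had been put together by their roles, from the start of autophagosome formation to the hydrolases of the lysosome. All 37 were found by symbol among the 57905 genes with deposited read counts. The rule that lists them uses no counts, although the list was drawn up with earlier results of these data known. All 37 passed the filter on low counts, the lowest count of any of them in a sample being 33. The cells were U87MG, an established human glioblastoma (GBM) line of wild type genotype, in 2 groups of 2 samples. The control group was left untreated, and the chaetocin group received 50 nM chaetocin in DMSO for 24 h. Chaetocin is a fungal metabolite that inhibits histone methyltransferases such as SUV39H1 and also thioredoxin reductase. Because the controls had no DMSO, drug and vehicle cannot be told apart here. A single line was used, and nothing in the labels says that the 2 samples of a group came from separate cultures, so the p-values measure the spread between these samples only, which may be technical. Polyadenylated RNA was measured, and neither protein nor autophagic flux was.

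In autophagy, a double membrane grows around cytosolic cargo, closes into an autophagosome and fuses with a lysosome, where hydrolases degrade the content. The ULK kinase complex starts the process, the BECN1 and PIK3C3 lipid kinase complex marks the site, and a ubiquitin-like conjugation cascade attaches proteins of the LC3 and GABARAP family to the membrane, where receptors such as SQSTM1 tether cargo to them. Transcription factors of the TFEB family, TFEB, TFE3 and MITF, bind E-box motifs in front of many lysosomal and autophagy genes and are controlled chiefly by where they sit in the cell. In glioblastoma, autophagy is known as a stress response that dividing tumour cells can use to survive treatment.

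Library totals ranged from 21241984 to 32590479 counts. Levels are given as CPM, the counts of a gene per 1000000 counts of its normalized library. Before normalization, 3 counts were 0.0921 to 0.141 per 1000000 counts of a library, and every listed gene had more than 3 counts in every sample. The floor covers counting error only. Of 16416 genes tested with edgeR's quasi-likelihood test, 304 (1.85%) were called at a Benjamini-Hochberg adjusted p under 0.05, 182 of them higher (1.11%) and 122 lower (0.743%) with chaetocin. With upper-quartile scaling the split was 246 higher and 88 lower. Without chaetocin sample 1 the calls numbered 1332 higher and 1673 lower, and without chaetocin sample 2 they numbered 712 and 940, the lone sample of a group being taken to vary as the other group did. The Wald test of DESeq2, which the study itself used, called 5.08% of its tested genes, and 2.25% of its tested genes as higher. The markers fixed for the label were mixed. The mesenchymal glioma genes *CD44* and *VIM* were abundant, whereas *GFAP* did not exceed 1.02 CPM and *SOX2*, *S100B* and *AQP4* had at most 5 counts in a sample. The summed level of the 10 astroglial and glioma markers was 4953 to 5619 CPM in controls and 2030 to 3281 CPM with chaetocin, and the 6 of them that were tested were lower in both chaetocin samples (26.0% of all tested genes). Of these, edgeR called 1, *CHI3L1*, and DESeq2 called 3, *CHI3L1*, *VIM* and *CD44*, all lower. The sum of 12 leukocyte markers was 22.7 to 27.8 CPM in controls and 19.0 to 36.0 CPM with chaetocin, most of it from *CSF1R*, and *CD3E*, *MS4A1* and *TYROBP* were at 0 in all 4 samples. Epithelial markers summed to 2.33 to 2.99 CPM in controls and 4.14 to 4.73 CPM with chaetocin, none of the 3 tested being called by either tool and 2 having an unadjusted p under 0.05. Neuronal markers summed to 69.3 to 72.1 CPM in controls and 61.6 to 68.7 CPM with chaetocin, and 1 of the 4 tested, *TUBB3*, was called higher by both tools. The part of these marker changes in the results below was not tested. In bulk RNA, fewer cells of a kind and less RNA per cell cannot be told apart.

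None of the 37 genes passed the threshold in either direction, where 1.85% of all tested genes did. The smallest adjusted p was 0.0872, for *ATG7*, the E1-like enzyme of the conjugation cascade. At an unadjusted p under 0.05 there were 6 of the 37 genes (16.2%), against 20.3% of all tested genes. Of these, *SQSTM1*, *ULK2*, *MCOLN1* and *BECN1* were on the higher side (10.9% of all genes) and *ATG7* and *TFE3* on the lower side (9.43% of all genes). DESeq2 called 1 of the 37, *SQSTM1*, as higher, where it called 2.25% of all its tested genes as higher. The log2 fold change, chaetocin over control, was below 0 for 24 genes and above 0 for 13, with a median of -0.09, beside a median of 0.01 over all tested genes. With upper-quartile scaling the median of the 37 genes was -0.012. The log2 fold changes ran from -0.54 for *ATG7* to 0.90 for *SQSTM1*. A change of at least 0.5 in size on the log2 scale was reached by 3 of the 37 genes, against 26.5% of all tested genes. Only 4 of the 37 genes were below 20 CPM in controls. The shares over all tested genes, here and below, were not matched for expression level.

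The groups did not overlap in 20 of the 37 genes in normalized CPM, both chaetocin samples lying above both controls in 6 genes (26.8% of all tested genes) and below both controls in 14 (26.0% of all tested genes). Over all tested genes, 52.7% had groups that did not overlap. The intervals say what sizes of change the data allow. Their half-width on the log2 scale ran from 0.32 to 0.85 with a median of 0.39, and the 95% interval lay within a 2-fold change in both directions for 35 of the 37 genes. The exceptions were *SQSTM1* and *ULK2*. It lay within a 1.5-fold change for 16 genes. Among the called genes of the whole table the smallest change was 0.71 on the log2 scale, a size that only *SQSTM1* and *ULK2* reached among the 37.

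**Figure D1:**
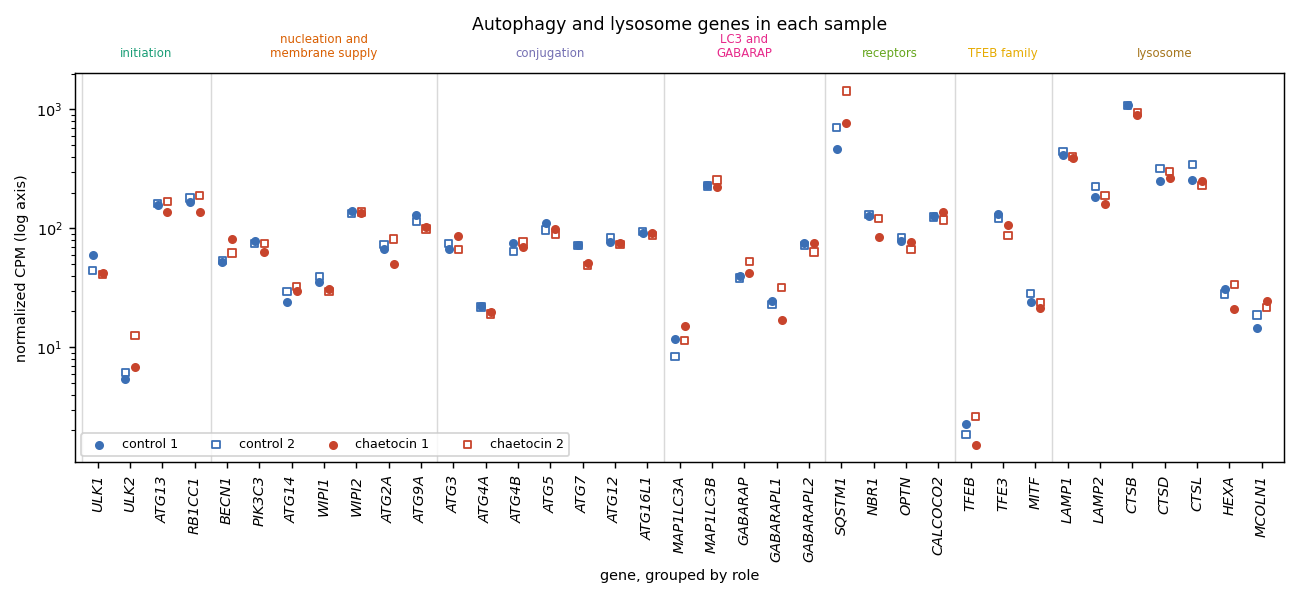
Normalized CPM (log axis) of the 37 genes in each of the 4 samples, with genes along the horizontal axis in groups by role, blue for control, red for chaetocin, filled circles for sample 1 and open squares for sample 2. The groups overlap in 17 genes, and *SQSTM1* reaches 1429 CPM in chaetocin sample 2 from 467 CPM in control sample 1.

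Initiation rests on the kinases ULK1 and ULK2 and on their partners ATG13 and RB1CC1, a scaffold also known as FIP200. *ULK2* stood at 5.41 and 6.12 CPM in the control samples and at 6.85 and 12.6 CPM with chaetocin. Both chaetocin samples were above both controls, but the 2 chaetocin samples differed by 1.83-fold. On the log2 scale this was a difference of 0.76 with a standard error of 0.30, and edgeR's quasi-likelihood test gave an adjusted p of 0.211. It was 1.12 without chaetocin sample 1 (adjusted p = 0.00263) and 0.24 without chaetocin sample 2 (adjusted p = 0.585), so chaetocin sample 2 carried most of it.

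*ULK1*, the more abundant of the kinases, was at 59.9 and 44.5 CPM in controls and at 41.8 and 41.1 CPM with chaetocin. Both chaetocin samples were lower than both controls, but the log2 fold change of -0.33 (adjusted p = 0.336) was smaller in size than the difference between the controls. It was -0.12 without control sample 1 and -0.54 without control sample 2. Per length of transcript, the level of *ULK2* amounted to 6.98% and 10.6% of that of *ULK1* in the controls and to 12.7% and 23.6% with chaetocin. *ATG13* and *RB1CC1* had overlapping groups, with log2 fold changes of -0.07 and -0.09.

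Of the genes for nucleation and membrane supply, *BECN1*, the regulatory subunit of the lipid kinase complex, was measured at 52.5 and 54.0 CPM in controls and at 80.9 and 62.0 CPM with chaetocin. Both chaetocin samples were higher, sample 1 more so. Of its exon bases, 17.1% lie opposite *CNTD1* and *PSME3*. The change was 0.42 on the log2 scale, with a standard error of 0.17 and an adjusted p of 0.21 by the edgeR test. Without chaetocin sample 2 it was 0.59 (adjusted p = 0.0147), and without chaetocin sample 1 it was 0.22 (adjusted p = 0.279). Its partner *ATG14*, which directs the complex to autophagy, had a log2 fold change of 0.22, and the catalytic subunit *PIK3C3* had one of -0.16. Single samples decided their size, *ATG14* ranging from 0.074 to 0.36 without control samples 1 and 2 and *PIK3C3* from -0.30 to -0.04 without chaetocin samples 2 and 1.

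*WIPI1*, which reads the lipid that the complex makes, gave the lowest value of this group. It was at 35.7 and 39.2 CPM in controls and at 30.7 and 29.6 CPM with chaetocin, a log2 fold change of -0.31 (adjusted p = 0.292). *ATG9A*, the membrane protein of the vesicles that seed the autophagosome, had 130.3 and 113 CPM in controls and 102 and 98.8 CPM with chaetocin, a log2 fold change of -0.28 (adjusted p = 0.33). Both genes were lower in both chaetocin samples, and the fold change of each was larger than the difference between the samples of either group. Of the exon bases of *ATG9A*, 38.8% are shared with another annotated gene on its own strand, and 28.1% of those of *WIPI1* lie opposite other genes, so their counts are uncertain. *WIPI2* held between 133 and 141 CPM in all 4 samples, with a log2 fold change of -0.02. *ATG2A*, a lipid transfer protein, was at 66.4 and 73.0 CPM in controls and at 50.1 and 81.3 CPM with chaetocin, so that the chaetocin samples lay on either side of the controls. Without chaetocin sample 2 its log2 fold change was -0.48 (adjusted p = 0.0445), and without chaetocin sample 1 it was 0.23 (adjusted p = 0.27).

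Conjugation of LC3 and GABARAP proteins to the membrane needs the E1-like enzyme ATG7, the E2-like enzyme ATG3, the proteases ATG4A and ATG4B, and the complex of ATG12, ATG5 and ATG16L1. *ATG7* had the smallest p of the 37 genes. The gene (chromosome 3, 11272309 to 11557665, plus strand, GRCh38) measured 72.5 and 71.9 CPM in controls and 51.0 and 48.5 CPM with chaetocin. The samples of each group lay close together, and both chaetocin samples were lower. Of its exon bases, 18.1% lie opposite exons of *VGLL4*. Control samples averaged 72.2 ± 0.47 CPM and chaetocin samples 49.8 ± 1.78 CPM (SD, n = 2). In edgeR this gave a log2 fold change of -0.54 with a standard error of 0.14, an adjusted p of 0.0872 and a 95% interval of 0.55- to 0.86-fold. DESeq2 gave an adjusted p of 0.0635. With no filter on low counts the adjusted p from edgeR was 0.0363, without chaetocin sample 1 it was 0.00927 and without chaetocin sample 2 it was 0.0331. It was 0.118 with upper-quartile scaling, 0.105 with at least 10 counts required in all samples, 0.491 without control sample 1 and 0.41 without control sample 2, while the log2 fold change stayed between -0.57 and -0.46 in all of these.

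None of the other 6 conjugation genes had an unadjusted p under 0.05. *ATG3* had the highest value of the group. It was at 66.7 and 74.3 CPM in controls and at 86.9 and 66.2 CPM with chaetocin, with overlapping groups and a log2 fold change of 0.12. *ATG16L1* differed least in the group, with levels of 87.7 to 93.4 CPM across the 4 samples and a 95% interval of 0.78- to 1.21-fold. *ATG12*, *ATG5* and *ATG4A* had log2 fold changes of -0.11, -0.14 and -0.18, and *ATG4B* had one of 0.08. Without control samples 1 and 2, *ATG12* was at -0.18 and -0.058, and *ATG5* at -0.058 and -0.25.

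**Figure D2:**
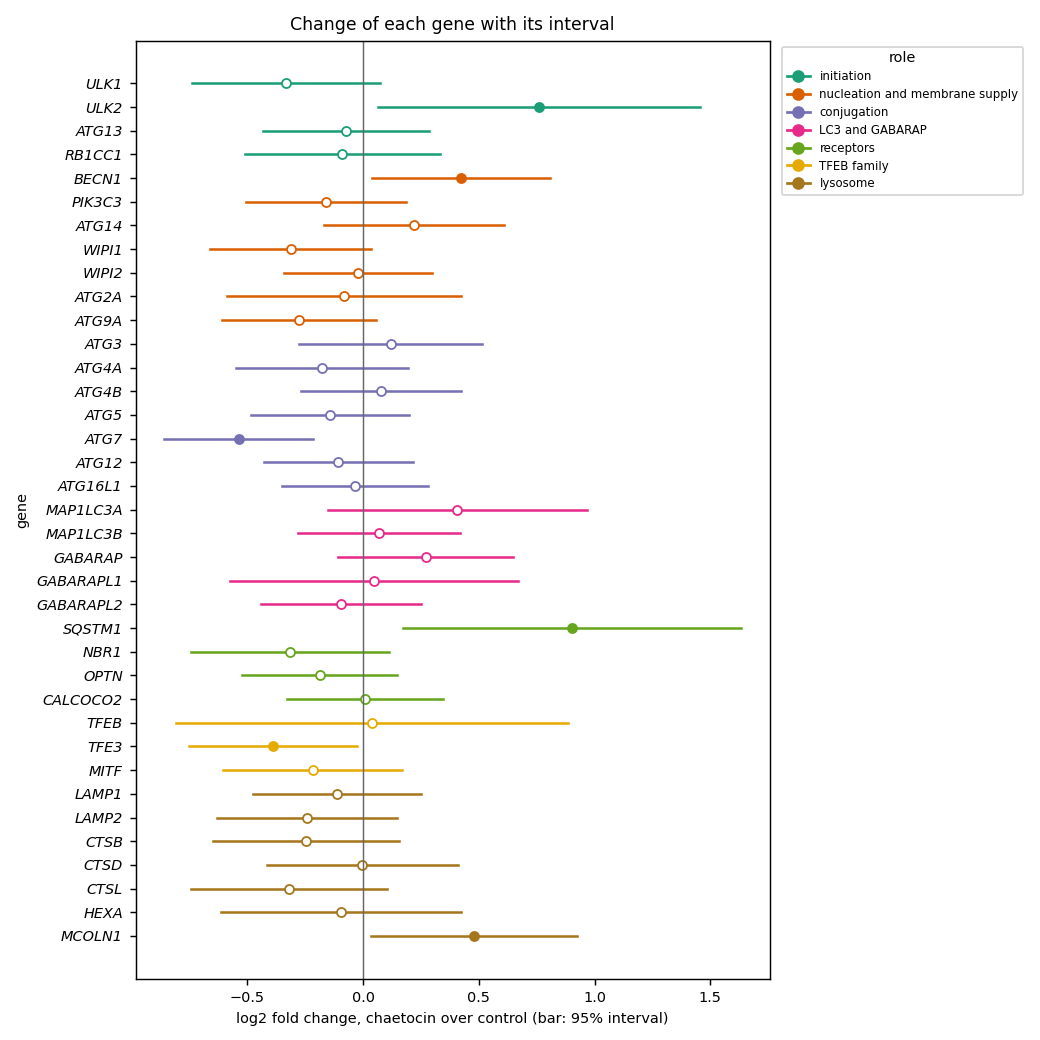
Log2 fold change, chaetocin over control, of each of the 37 genes (circle) with its 95% interval (bar) from edgeR's quasi-likelihood fit, coloured by role, filled where the unadjusted p was under 0.05. The intervals of 31 genes include 0, and the filled circles are *ULK2*, *BECN1*, *ATG7*, *SQSTM1*, *TFE3* and *MCOLN1*.

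The LC3 and GABARAP family is what conjugation places on the membrane. Per length, as CPM per kilobase of merged exons (RPKM), *MAP1LC3B* was the most abundant of the 5 genes at 43.4 and 42.7 RPKM in controls and 42.2 and 47.9 RPKM with chaetocin. *GABARAPL2* followed at 20.9 to 24.9 RPKM over the 4 samples and *GABARAP* at 16.9 to 23.2 RPKM, so these neighbours overlapped. *GABARAPL1* (4.12 to 7.73 RPKM) and *MAP1LC3A* (4.74 to 8.61 RPKM) also overlapped each other and lay below the rest. *MAP1LC3B* made up 44.8% of the family's summed level in controls and 44.1% with chaetocin, and the order of the 3 highest group means was the same in both groups, although *GABARAP* lay above *GABARAPL2* in chaetocin sample 2.

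*MAP1LC3B* itself did not pass the test, at 230.3 and 227 CPM in controls and 224 and 255 CPM with chaetocin, and its 95% interval was 0.82- to 1.34-fold. *MAP1LC3A* had the highest log2 fold change of the family, at 0.41 (adjusted p = 0.389). It measured 11.7 and 8.35 CPM in controls and 15.2 and 11.4 CPM with chaetocin, and the groups overlapped. Leaving out control sample 1 gave 0.65, control sample 2 gave 0.17 and chaetocin sample 1 gave 0.20. *GABARAPL2* had the lowest, at -0.10. It measured 75.6 and 71.7 CPM in controls and 74.6 and 63.3 CPM with chaetocin.

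*GABARAPL1* was the least settled of the family. Its controls were at 24.3 and 22.8 CPM, and the chaetocin samples at 16.8 and 31.6 CPM, 1.88-fold apart and on either side of the controls. *GABARAP* was at 40.0 and 38.3 CPM in controls and at 41.8 and 52.5 CPM with chaetocin, higher in both chaetocin samples, with a log2 fold change of 0.27 (adjusted p = 0.401). Without chaetocin sample 1 it was 0.43 (adjusted p = 0.0436), and without chaetocin sample 2 it was 0.086 (adjusted p = 0.747). Of the exon bases of *GABARAP*, 55.7% are shared with other annotated genes, 30.5% on its own strand, and its counts are therefore uncertain. *MAP1LC3B2*, a near-identical copy of *MAP1LC3B*, had at most 3 counts in a sample.

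Receptors link cargo to LC3 and GABARAP proteins and are degraded with it. *SQSTM1* encodes p62, which binds ubiquitin and KEAP1 and is itself a target of the antioxidant factor NRF2. It lies on chromosome 5 of GRCh38 from 179806398 to 179838078 on the plus strand. Control samples 1 and 2 held 11391 and 20326 counts and chaetocin samples 1 and 2 held 16668 and 50758, or 467 and 707 CPM against 766 and 1429 CPM after normalization. Both chaetocin samples were above both controls, but chaetocin sample 1 was above control sample 2 by much less than the 2 samples of either group were apart. The controls differed by 1.52-fold and the chaetocin samples by 1.87-fold. Control samples averaged 587 ± 170.1 CPM and chaetocin samples 1097 ± 469 CPM (SD, n = 2). In edgeR this gave a log2 fold change of 0.90 with a standard error of 0.32, an adjusted p of 0.166 and a 95% interval of 1.13- to 3.10-fold.

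The call on *SQSTM1* depended on the tool and on single samples. DESeq2 gave an adjusted p of 0.0299 at a log2 fold change of 0.89, and edgeR without a filter on low counts gave 0.000195. Without chaetocin sample 1 the log2 fold change was 1.29 (adjusted p = 0.00486), and without chaetocin sample 2 it was 0.38 (adjusted p = 0.342). Leaving out control sample 2 gave 1.22 (adjusted p = 0.0894), and leaving out control sample 1 gave 0.62 (adjusted p = 0.494). Its share of the counts of the list was 9.30% and 13.0% in controls and 15.7% and 24.8% with chaetocin. Without it, the other 36 genes took 0.429% and 0.449% of all counts in controls and 0.422% and 0.472% with chaetocin. Of its exon bases, 22.0% lie opposite exons of *MRNIP* and *MGAT4B*, and whether reads were counted by strand is not given in the sources used here.

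The other 3 receptors had log2 fold changes from -0.31 to 0.01. *NBR1*, related to p62 in its domains, was at 127 and 130 CPM in controls and at 85.1 and 122 CPM with chaetocin, lower in both chaetocin samples, with a log2 fold change of -0.31 (adjusted p = 0.385). Without chaetocin sample 2 it was -0.60 (adjusted p = 0.0143), and without chaetocin sample 1 it was -0.08. *OPTN*, a receptor for mitochondria and bacteria, had a log2 fold change of -0.19, which was -0.28 without chaetocin sample 1 and -0.10 without chaetocin sample 2. *CALCOCO2*, also called NDP52, had one of 0.01, with a 95% interval of 0.80- to 1.27-fold.

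**Figure D3:**
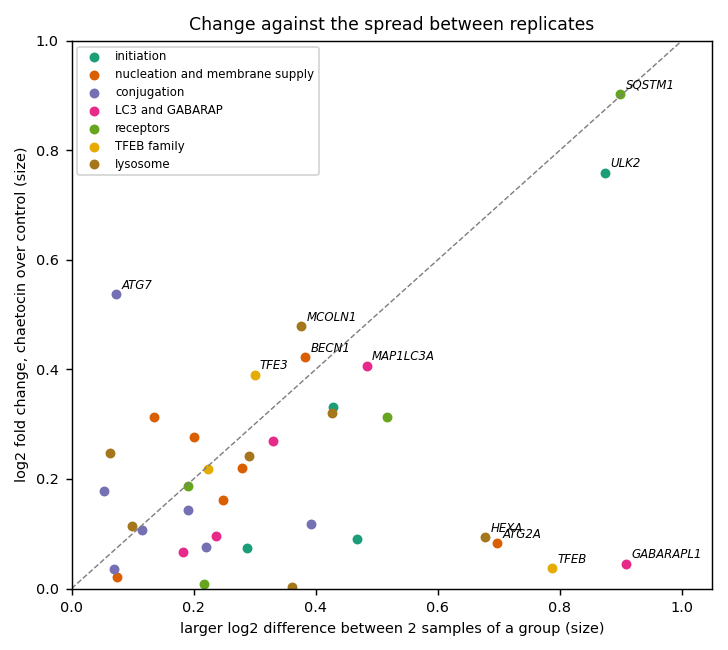
Size of the log2 fold change of each of the 37 genes (vertical axis) against the larger of the log2 differences between the 2 samples of a group (horizontal axis), coloured by role, with a dashed line where both are equal. Above the line lie 10 genes, *ATG7* farthest from it, while *SQSTM1* lies almost on it at 0.90 on both axes.

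Taking all 37 genes, the change exceeded the differences between replicates of both groups in 10 genes (27.0%), against 37.8% of all tested genes. These were *BECN1*, *WIPI1*, *ATG9A*, *ATG4A*, *ATG7*, *SQSTM1*, *TFE3*, *LAMP1*, *CTSB* and *MCOLN1*. The chaetocin samples were more than 1.5-fold apart in 6 genes, *ULK2*, *ATG2A*, *GABARAPL1*, *SQSTM1*, *TFEB* and *HEXA*, and chaetocin sample 2 was the higher in all 6. Among the controls, *SQSTM1* was the only 1 of the 37 genes more than 1.5-fold apart. The median size of the log2 difference between samples was 0.12 for the controls and 0.20 for the chaetocin samples, and the median size of the change was 0.18.

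The TFEB family was led by *TFE3*. Per length, it stood at 30.8 and 28.5 RPKM in controls and at 25.0 and 20.3 RPKM with chaetocin, *MITF* at 2.97 to 3.93 RPKM and *TFEB* at 0.27 to 0.46 RPKM over the 4 samples, with no overlap between the 3 genes. In controls *TFE3* made up 88.0% of the summed level of the family, *MITF* 10.9% and *TFEB* 1.08%, and with chaetocin the shares were 86.4%, 12.1% and 1.44%. A sum per gene does not separate isoforms, of which *MITF* has several.

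*TFE3* (chromosome X, 49028726 to 49043486, minus strand, GRCh38) did not pass the threshold. It was at 132 and 122 CPM in controls and at 107 and 86.8 CPM with chaetocin. Both chaetocin samples were below both controls, chaetocin sample 2 the more so. This was a log2 fold change of -0.39 with a standard error of 0.16, and edgeR gave an adjusted p of 0.216. Without chaetocin sample 1 it was -0.54 (adjusted p = 0.0122), and without chaetocin sample 2 it was -0.25 (adjusted p = 0.243). *MITF* was at 24.2 and 28.2 CPM in controls and at 21.3 and 23.7 CPM with chaetocin, with a log2 fold change of -0.22 (adjusted p = 0.513) that was -0.34 without control sample 1 and -0.11 without control sample 2. *TFEB* had 55 and 53 counts in controls and 33 and 93 counts with chaetocin. The chaetocin samples lay on either side of the controls, and the 95% interval, 0.57- to 1.85-fold, was the widest of the 37 genes.

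**Figure D4:**
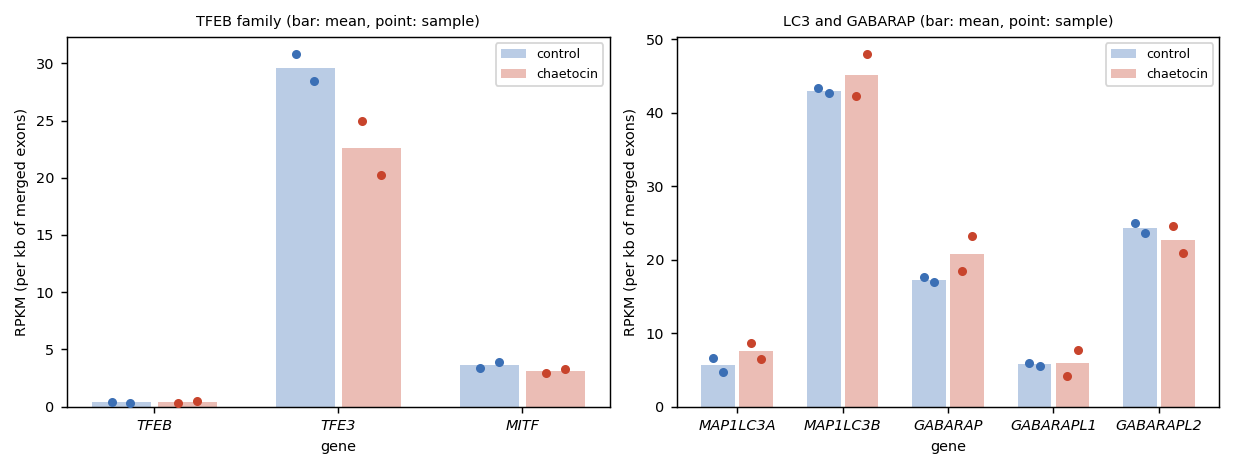
Level per length (RPKM, CPM per kilobase of merged exons) of the genes of the TFEB family (left) and of the LC3 and GABARAP family (right), with bars from 0 for the mean of 2 samples, points for samples, blue for control and red for chaetocin. *TFE3* and *MAP1LC3B* lead their families in both groups.

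The lysosomal genes differed widely in level. The proteases cathepsin B, L and D, encoded by *CTSB*, *CTSL* and *CTSD*, were the 3 highest per length in controls, at 147, 127 and 90.8 RPKM, ahead of *SQSTM1* at 76.7 and *LAMP1*, a membrane glycoprotein of the lysosome, at 75.1 RPKM, while *MCOLN1* and *HEXA* stood at 4.19 and 2.33 RPKM. The ranges of *CTSB* and *CTSL* overlapped over the 4 samples, as did those of *CTSL*, *CTSD* and *SQSTM1*. With chaetocin *SQSTM1* had the highest mean, 143 RPKM, but its samples were at 100.1 and 187 RPKM, on either side of the 121 and 126 RPKM of *CTSB*.

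*MCOLN1*, which encodes the lysosomal calcium channel TRPML1, was the 1 lysosomal gene with an unadjusted p under 0.05. It was at 14.4 and 18.7 CPM in controls and at 24.7 and 21.6 CPM with chaetocin. Both chaetocin samples were higher than both controls, sample 1 the more so. By edgeR the log2 fold change was 0.48 with a standard error of 0.19 and an adjusted p of 0.216, and leaving out single samples gave 0.29 to 0.67.

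The other 6 lysosomal genes had log2 fold changes between -0.32 and -0.003, and none had an unadjusted p under 0.05. *CTSL* was the lowest of them, at 256 and 344 CPM in controls and at 249.9 and 230.3 CPM with chaetocin, where the controls were farther apart than the chaetocin samples were from control sample 1. Its log2 fold change of -0.32 was -0.53 without control sample 1 and -0.10 without control sample 2. *CTSB* was at 1094 and 1082 CPM in controls and at 897 and 937 CPM with chaetocin, lower in both chaetocin samples, a log2 fold change of -0.25 (adjusted p = 0.469). *LAMP1* was at 416 and 446 CPM in controls and at 393 and 404 CPM with chaetocin, also lower in both. Its log2 fold change of -0.11 was -0.18 without control sample 1 and -0.074 without control sample 2. *LAMP2*, the partner of LAMP1 with a part in fusion, and *HEXA*, a subunit of hexosaminidase, had overlapping groups. So did *CTSD*, at 249 and 319 CPM in controls and 265 and 301 CPM with chaetocin, but 52.7% of its exon bases are shared with other annotated genes, and its counts are uncertain.

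Factors of the TFEB family bind the E-box CACGTG, and the windows around the gene starts were searched for it. RefSeq windows on GRCh38.p14, running from 250 bases before to 50 bases after a start, matched 32 of the 37 genes with 42 windows. The palindrome CACGTG was present in 5 of the 42 windows (11.9%), against 7.26% of 35116 windows of all genes. Counted per gene, 5 of the 32 genes had a match, against 12.3% of the tested genes with a window. The 5 genes with a match were *LAMP1*, *MCOLN1*, *CTSD*, *ATG14* and *ATG3*. The bases just before the start of each are given below, 5′ to 3′ on the strand of the gene, to show how the motif recurs in front of *LAMP1* and *MCOLN1*. Capitals mark CACGTG.
MCOLN1, chr19:7522524-7522623, plus strand: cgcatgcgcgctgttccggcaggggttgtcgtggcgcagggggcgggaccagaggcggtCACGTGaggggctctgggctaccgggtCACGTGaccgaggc
LAMP1, chr13:113297039-113297238, plus strand: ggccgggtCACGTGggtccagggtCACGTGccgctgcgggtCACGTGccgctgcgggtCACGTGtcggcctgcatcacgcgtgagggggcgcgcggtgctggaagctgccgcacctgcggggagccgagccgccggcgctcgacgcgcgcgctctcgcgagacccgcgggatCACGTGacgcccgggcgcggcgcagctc
CTSD, chr11:1763928-1764027, minus strand: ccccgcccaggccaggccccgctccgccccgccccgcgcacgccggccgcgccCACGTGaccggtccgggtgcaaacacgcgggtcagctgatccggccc
ATG14, chr14:55411831-55411930, minus strand: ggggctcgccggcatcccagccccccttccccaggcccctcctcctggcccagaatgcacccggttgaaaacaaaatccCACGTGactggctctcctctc
ATG3, chr3:112561963-112562062, minus strand: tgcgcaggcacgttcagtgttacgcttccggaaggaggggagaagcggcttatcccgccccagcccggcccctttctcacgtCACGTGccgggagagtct

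The *LAMP1* stretch holds 5 matches and that of *MCOLN1* holds 2, and *LAMP1* and *ATG3* have 1 more each at or after the start. The genes with these stretches did not all differ in 1 direction. Their log2 fold changes were 0.48 for *MCOLN1*, 0.22 for *ATG14*, 0.12 for *ATG3*, -0.003 for *CTSD* and -0.11 for *LAMP1*, a median of 0.12. Over the tested genes with a window, the median was -0.02 with a match and -0.02 without. The core of the antioxidant response element that NRF2 binds, TGACNNNGC on either strand, was found in 5 of the 42 windows (11.9%), against 13.3% of all windows. Those were the windows of *LAMP1*, *CTSD*, *CTSL*, *MAP1LC3B* and *CALCOCO2*. Counted per gene, 5 of the 32 genes had it, against 19.2% of the tested genes with a window. No window of *SQSTM1* held it, which says only that these letters are not in those bases. A match describes the sequence and is no evidence of binding.

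A wider list of 162 matched genes of the same machinery was read from the same fit, of which 157 were tested. Called genes numbered 2 of the 157 (1.27%), beside 1.85% of all tested genes, and 60 of the 157 lay above 0, with a median log2 fold change of -0.06. *TMEM41B*, a scramblase of the endoplasmic reticulum that supplies lipid to growing autophagosomes, rose among 31 other core autophagy genes. It was at 45.9 and 45.6 CPM in controls and at 78.2 and 79.1 CPM with chaetocin, so the groups lay far apart and the samples of each lay close together. In edgeR its log2 fold change was 0.78, with a standard error of 0.14 and an adjusted p of 0.0382. It was between 0.77 and 0.79 with each sample left out, but the adjusted p was 0.219 without control sample 1 and 0.173 without control sample 2.

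*MANBA*, the lysosomal beta-mannosidase, fell among 41 other hydrolases and cofactors, in which 14 lay above 0 and 27 below. It was at 56.3 and 64.6 CPM in controls and at 32.7 and 36.5 CPM with chaetocin, both chaetocin samples well below both controls. This was -0.81 on the log2 scale, with a standard error of 0.16 and an adjusted p of 0.0466 by edgeR. The adjusted p was 0.0558 with upper-quartile scaling and 0.0595 with at least 10 counts required in every sample, and it was 0.0724 and 0.202 without control samples 1 and 2. DESeq2 called both *TMEM41B* and *MANBA*, with adjusted p of 0.0029 and 0.003. In the same lists it also called *EPG5* and *PLA2G15* as lower, for which edgeR gave an adjusted p of 0.0913 and 0.0858. Over all wider lists DESeq2 called 2 genes higher and 4 lower, where it called 5.08% of all its tested genes.

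By edgeR's quasi-likelihood test no gene was called in the 4 remaining lists, where 11 of 85 tested genes had an unadjusted p under 0.05, 2 higher and 9 lower, where the shares over all tested genes were 10.9% and 9.43%. DESeq2 called 1 of these higher, *TFEC*, and 1 lower, *SCARB2*, the lysosomal receptor LIMP2. Of all its 16945 tested genes, DESeq2 called 2.25% higher and 478 genes lower. Of 22 other lysosomal membrane proteins, 4 had an unadjusted p under 0.05, all lower (9.43% of all tested genes), and *MFSD8*, a lysosomal transporter, had the smallest adjusted p, 0.0942 at a log2 fold change of -0.57. Of 15 other autophagy receptors, 13 lay below 0, and *RETREG1*, a receptor for the endoplasmic reticulum, had the smallest adjusted p, 0.115 at -0.52. Of 16 subunits and partners of the vacuolar ATPase, which acidifies the lysosome, 8 lay above 0 and 8 below, with a median of 0.00. *ATP6V0A2* had the smallest adjusted p of these, 0.121 at 0.58. *ATP6V0C*, its proton-binding subunit, had at most 8 counts in a sample and was not tested, and 72.1% of its exon bases are shared with other annotated genes.

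Among 32 genes of mTORC1, AMPK and nutrient signalling, which set when autophagy starts, 13 lay above 0 and 19 below. *TFEC*, the remaining relative of TFEB and known from myeloid cells, had the smallest adjusted p by edgeR, 0.0513 at a log2 fold change of 3.58. It had 3 and 1 counts in controls and 16 and 41 counts with chaetocin, and DESeq2 gave an adjusted p of 0.0425. In edgeR the adjusted p was 0.0484 with upper-quartile scaling and 0.000873 without a filter on low counts. Leaving out single samples gave log2 fold changes of 2.90 to 4.61. The leukocyte markers *PTPRC* and *ITGAM* were also higher in both chaetocin samples. They had at most 0.03 CPM in a control. With chaetocin *PTPRC* was at 0.69 and 0.76 CPM and *ITGAM* at 1.10 and 0.82 CPM. Of the 12 leukocyte markers, 5 were tested, and edgeR called 2 of them as higher (1.11% of all tested genes). DESeq2 called 1 as higher, *ITGAM* (2.25% of all its tested genes). Of the 5 tested, 1 lay below 0, and 4 had both chaetocin samples above both controls (26.8% of all tested genes). The summed level of the 12 markers overlapped between the groups. The part of these markers in the result for *TFEC* was not tested.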

How the data were processed

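Single-end RNA sequencing libraries, made from polyadenylated RNA with 15 cycles of PCR, were analysed from 4 samples of U87MG cells. The authors deposited raw read counts per gene, 1 table per sample, without normalization. The submitters' processing notes name cutadapt, TopHat2 and SAMtools and the build GRCh37. The counting tool, its annotation and its use of strand are not given in the sources used here. Groups came from the sample titles.

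Counts were tested in R 4.3.3 with edgeR 4.0.16 across all genes (filterByExpr with a minimum count of 10, TMM normalization, robust quasi-likelihood fit, no block, two-sided, Benjamini-Hochberg adjustment, threshold 0.05), and tested on simulated data. Standard errors were the fold change over the root of the F statistic, on the log2 scale, and 95% intervals followed from them. DESeq2 1.42.0 was an alternative, as were other scalings, filters, thresholds and leaving out each sample. Normalized CPM used TMM-scaled totals, and RPKM divided them by merged exon length in GENCODE v29 (GRCh38), which may differ from the annotation counted. Symbols and positions came from GENCODE v29, which listed 52338 of the 57905 identifiers, and *NCOA4* was not matched. Totals ranged from 21241984 to 32590479, and counting intervals do not cover PCR duplicates. Scaled by total counts alone, 41.8% of tested genes differed beyond counting error between the controls and 58.7% between the chaetocin samples. Because composition was not adjusted for, this does not show whether the 2 samples of a group were prepared separately.

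The genes and lists were chosen with earlier results of these data known. All 37 genes were named, with values in every sample for those with an unadjusted p under 0.05, for the highest and lowest of each role and for further genes where these bore on a result. Of each wider list, called genes or the gene with the smallest p were named. The promoter stretches of genes whose unadjusted p was not under 0.05, and *ATP6V0C*, *SCARB2*, *EPG5* and *PLA2G15*, were added after their values were seen. No protein sequences were used here.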

Additional observations from a re-analysis of the deposited data

How the results depend on the processing

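All alternatives were run on the same counts. Among values of the 37 genes, 207 of 222 under alternatives that keep all samples had the direction and side of the threshold given above, 5 passed the threshold in addition and 10 changed sign, and with 1 sample left out 122 of 148 held, 9 passed and 17 changed sign. Genes called higher and lower numbered 787 and 759 without a filter on low counts, 114 and 80 under a stricter filter of at least 10 counts in all samples, 382 and 478 with DESeq2, 1036 and 1053 with the replicate block, 1791 and 1548 at an unadjusted p under 0.05, 616 and 466 at an adjusted p under 0.1, and 215 to 1332 and 97 to 1673 with each sample left out. Of the 37 genes, those called higher numbered 1 without a filter, 1 with DESeq2, 1 with the replicate block, 4 at an unadjusted p under 0.05 and 0 to 3 with each sample left out, and those called lower 1 without a filter, 1 with the replicate block, 2 at an unadjusted p under 0.05, 1 at an adjusted p under 0.1 and 0 to 3 with each sample left out. Without a filter 4.88% of all genes were called and with the replicate block 12.7%. The share was 1.74% and 2.10% without control samples 1 and 2, and 17.0% and 9.82% without chaetocin samples 1 and 2. Wider-list genes called higher and lower numbered 2 and 0 with upper-quartile scaling, 8 and 8 without a filter, 1 and 0 under the stricter filter, 2 and 4 with DESeq2, 11 and 13 with the replicate block, 10 and 19 at an unadjusted p under 0.05, 4 and 7 at an adjusted p under 0.1, and 1 to 20 and 0 to 19 with each sample left out. The median of the 37 genes was -0.012 with upper-quartile scaling and -0.14 to -0.068 with each sample left out.

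The samples are numbered 1 and 2 in both groups, without a stated pairing, and the differences between samples 1 and 2 correlated across genes with r = 0.23. With the replicate block the adjusted p was 0.0155 for *ATG7* and 0.0025 for *SQSTM1*, and the fit has 1 residual degree of freedom.

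Signs changed for genes near 0. With upper-quartile scaling the log2 fold change was 0.0026 for *ATG13*, 0.054 for *WIPI2*, 0.040 for *ATG16L1* and 0.075 for *CTSD*. Under the stricter filter it was 0.00049 for *WIPI2* and 0.019 for *CTSD*. With the replicate block it was -0.017 for *GABARAPL1* and 0.0048 for *CTSD*. For *CALCOCO2* it was -0.012 without a filter and -0.0086 with DESeq2. With each sample left out it ran from -0.23 to 0.065 for *ATG13*, -0.35 to 0.13 for *RB1CC1*, -0.069 to 0.0028 for *WIPI2*, -0.48 to 0.23 for *ATG2A*, -0.087 to 0.29 for *ATG3*, -0.042 to 0.18 for *ATG4B*, -0.035 to 0.16 for *MAP1LC3B*, -0.49 to 0.43 for *GABARAPL1*, -0.22 to 0.011 for *GABARAPL2*, -0.10 to 0.11 for *CALCOCO2*, -0.44 to 0.36 for *TFEB*, -0.19 to 0.18 for *CTSD* and -0.48 to 0.20 for *HEXA*. The cause was not tested.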
